A study of Oryctolagus cuniculus with 16 samples.

Results

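The BCL2 family of cell death regulators was followed through the femoral heads of rabbits with and without a surgical model of Perthes disease. The family was represented by 10 listed genes, of which 9 were found by their symbol among the 20255 genes of the expression table: the survival genes *BCL2*, *BCL2L1*, *BCL2A1* and *MCL1*, the pore-forming effectors *BAX* and *BAK1*, and the BH3-only genes *BID*, *BCL2L11* and *BBC3*. No gene carried the symbol *PMAIP1*. Wild-type rabbits were used throughout. In the Perthes group (5 rabbits, operated at 8 weeks of age) surgery cut off the blood reaching the femoral head, by a tie around its neck and division of its ligament. The control group held 3 rabbits labelled wild type, whose age and any sham operation are not given in the sources used here, nor is the time from operation to sampling. In the absence of a stated sham operation, the loss of blood supply and the injury of surgery cannot be told apart. Each rabbit gave 1 total RNA library from femoral head tissue. The third control has the code of rabbit 3 but a title with another number, and was taken as control rabbit 3.

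Members of this family decide whether the outer mitochondrial membrane is breached, the step that commits a cell to intrinsic apoptosis. BAX and BAK1 open that membrane and release cytochrome c, which assembles the apoptosome and activates caspases. BCL2, BCL-XL (encoded by *BCL2L1*), BFL-1/A1 (*BCL2A1*) and MCL-1 hold the effectors and the BH3-only proteins in check, and the BH3-only proteins relay stress signals such as growth factor loss (BIM, from *BCL2L11*), genotoxic damage (PUMA, from *BBC3*) and death receptor signalling (BID). Blood lineages differ in the survival protein they lean on: BCL-XL in maturing red cells and platelets, MCL-1 in stem cells, neutrophils and many other lineages, BCL-2 in lymphocytes, and BFL-1/A1 in activated or inflammatory myeloid cells. The femoral head of a young rabbit holds marrow, bone and cartilage, and a tissue sample mixes their cells.

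The values are expected read counts per gene, scaled to library size as CPM (counts divided by the scaled library total and multiplied by 1e+06) with the trimmed mean of M values method (TMM). The libraries held 26757087 to 29461482 counts, so that 1 count was worth 0.0339 to 0.0374 CPM before TMM scaling, and the members had between 69 and 10557 counts in a library. No 2 libraries of a group agreed within sampling noise (lowest chi-square per degree of freedom 75.03). Marker genes for cartilage and bone were present in both groups, with summed levels of 32706 to 131326 CPM for chondrocytes and 45988 to 145324 CPM for osteoblasts. Markers of red cells, neutrophils, megakaryocytes, B cells and cycling cells had lower summed levels in all 5 Perthes rabbits than in all 3 controls, and those of macrophages, osteoclasts and fibroblasts higher. Among the 15305 genes tested between the groups, 951 (6.21%) were higher and 1356 (8.86%) lower in Perthes rabbits at an adjusted p below 0.05 in edgeR's quasi-likelihood test, so that 58.8% of calls were lower (71.5% with library totals in place of TMM). Sequencing batches are not named in the sources used here, so no within-batch values could be given.

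Within the family, *BCL2L1* fell in Perthes rabbits to less than its level in any control, while *MCL1*, *BCL2A1* and *BAX* had higher mean levels that did not pass the adjusted threshold. The remaining members, *BCL2*, *BAK1*, *BID*, *BCL2L11* and *BBC3*, overlapped between the groups. All 9 members passed the low-count filter, and edgeR called 1 of them lower, against 8.86% of all genes tested, and 0 higher, against 6.21%. At an unadjusted p below 0.05 there were 3 members higher (15.3% of all genes) and 1 lower (16.6%). DESeq2 called the same 3 higher and 1 lower, with 9.74% and 11.0% of its genes called in those directions. With an added requirement of a fold change of at least 2, *BCL2L1* was again the 1 member lower (6.72% of all genes) and 0 were higher (4.21%). The study's own limits for a differential gene, 2 on the log2 scale and 1e-05 for adjusted p, were met by 0 members, and by 0% of genes in edgeR and 1.12% in DESeq2. With the replicate number as a block, 4 members had an unadjusted p below 0.05, beside 20.6% of all genes. In that fit Perthes rabbits 4 and 5, without a control of the same number, add nothing to the group difference. The median log2 fold change of the 9 members was 0.15, beside 0.02 over all genes tested.

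Of the survival genes, *BCL2L1* (gene 100008875) showed the clearest separation. Its levels were 52.6, 91.4, 57.02, 46.8 and 51.1 CPM in Perthes rabbits 1 to 5 and 148.8, 162.9 and 130.04 CPM in control rabbits 1 to 3. Perthes rabbit 2 lay well above the other 4 Perthes rabbits and still below the lowest control. The Perthes mean of 59.8 ± 18.04 CPM (SD, n = 5) was 2.46-fold lower than the control mean of 147 ± 16.5 CPM (SD, n = 3). On the log2 scale the change was -1.30 ± 0.23, where the error is the standard error (SE), with an edgeR adjusted p of 0.0134. It was the one member called lower, and 13.9% of all genes tested had every Perthes rabbit below every control. The adjusted p was 0.0514 without control rabbit 1 (log2 fold change -1.29) and 0.0563 without control rabbit 2 (-1.22), fits in which 257 and 0 of all genes tested were called.

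*MCL1* (gene 100359222) encodes a short-lived survival protein. It reached 357 CPM in Perthes rabbit 1, 169 in rabbit 2, 233 in rabbit 3, 165 in rabbit 4 and 304 in rabbit 5, and 133, 119 and 144 CPM in the controls. Each Perthes rabbit was above each control, a separation in this direction that 11.2% of all genes tested also had. Rabbits 2 and 4 were nevertheless close to the highest control. The means were 246 ± 84.0 CPM (SD, n = 5) and 132 ± 12.1 CPM (SD, n = 3), and the log2 change was 0.90 ± 0.29 (SE, edgeR adjusted p = 0.0645, 0.0209 from DESeq2). Without Perthes rabbit 2 or Perthes rabbit 4, edgeR's adjusted p was 0.0414 and 0.0367.

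*BCL2A1* (gene 100348952) is a target of NF-κB that is expressed mainly in blood and inflammatory cells. It had the largest fold change of the 9 members and, in both groups, the largest coefficient of variation. Perthes rabbits 1 to 5 held 81.3, 30.1, 49.2, 32.1 and 76.8 CPM, and the controls 32.4, 11.8 and 11.9 CPM. Control rabbit 1 was higher than Perthes rabbits 2 and 4, so the groups overlapped. The means were 53.9 ± 24.2 CPM (SD, n = 5) and 18.7 ± 11.9 CPM (SD, n = 3), and the log2 change was 1.53 ± 0.48 (SE, edgeR adjusted p = 0.0620, 0.00963 from DESeq2). Leaving out control rabbit 1 raised it to 2.19, whereas leaving out Perthes rabbit 2 or 4 gave adjusted p-values of 0.0436 and 0.0476 in edgeR. Without any other single rabbit the adjusted p stayed above 0.05, up to 0.203 without control rabbit 2 (log2 fold change 1.28).

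*BCL2* itself (gene 103349397), the founding survival gene, was at a similar level in both groups. Its values were 59.7, 40.5, 49.8, 33.2 and 46.3 CPM in the Perthes rabbits and 32.3, 41.8 and 51.4 CPM in the controls. The ranges were nearly the same, and the log2 change was 0.13 ± 0.22 (SE, edgeR adjusted p = 0.713).

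Between the effectors, *BAX* (gene 100355675) and *BAK1* (gene 100342046) did not follow the same pattern. *BAX*, whose product moves from the cytosol to mitochondria when activated, had 31.1, 23.1, 26.03, 15.1 and 37.8 CPM in Perthes rabbits 1 to 5 and 16.7, 12.4 and 10.8 CPM in the controls. Only Perthes rabbit 4 lay within the control range. The means were 26.6 ± 8.51 CPM (SD, n = 5) and 13.3 ± 3.07 CPM (SD, n = 3). The log2 change was 1.00 ± 0.30 (SE), with an adjusted p of 0.0524 in edgeR and 0.0135 in DESeq2. It passed the threshold at 0.0494 in edgeR's newer quasi-likelihood fit, tried after the values were seen, and at 0.0177 without Perthes rabbit 4. Without any other single rabbit the edgeR adjusted p stayed above 0.05, up to 0.165 without control rabbit 2. *BAK1*, which resides in the mitochondrial membrane, had 47.05, 57.1, 75.0, 47.6 and 67.9 CPM in Perthes rabbits and 106, 50.8 and 51.9 CPM in controls. Control rabbit 1 was the highest of all 8 rabbits and the other controls lay inside the Perthes range. The log2 change was -0.24 ± 0.28 (SE, edgeR adjusted p = 0.592) and changed sign to 0.20 without control rabbit 1.

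None of the 3 BH3-only members found was called in either direction by edgeR or by DESeq2, and none had an unadjusted p below 0.05. *BCL2L11* (gene 100345483), which encodes BIM, was the most even member among Perthes rabbits, at 25.5, 22.9, 24.8, 24.3 and 30.5 CPM. The controls had 27.4, 14.2 and 16.5 CPM, so that control rabbit 1 lay among the Perthes rabbits and the other controls below them. The log2 change was 0.40 ± 0.23 (SE, edgeR adjusted p = 0.254). *BID* (gene 100355991), the link from death receptors to mitochondria, had 9.52, 7.94, 8.41, 5.13 and 10.8 CPM in Perthes rabbits and 14.04, 6.59 and 7.62 CPM in controls, with a log2 fold change of -0.17 (SE 0.31). *BBC3* (gene 100357703), which encodes PUMA, had 4.59, 6.78, 6.98, 2.51 and 5.14 CPM against 6.07, 4.69 and 3.26 CPM, with a log2 fold change of 0.15 (SE 0.35). Both genes overlapped between the groups, with Perthes rabbit 4 the lowest of all 8 rabbits. Without control rabbit 1 the *BID* value was 0.24, and without control rabbit 3 the *BBC3* value was -0.05. Under the identifier LOC103349392 a gene is listed that is described by the full name of the NOXA protein, the product of *PMAIP1* in other mammals. It lay outside the symbol rule and was too low to test, with 15, 3, 7, 8 and 10 counts in the operated rabbits and 14, 2 and 2 in the controls (two-sided exact permutation test, p = 0.393).

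**Figure D1:**
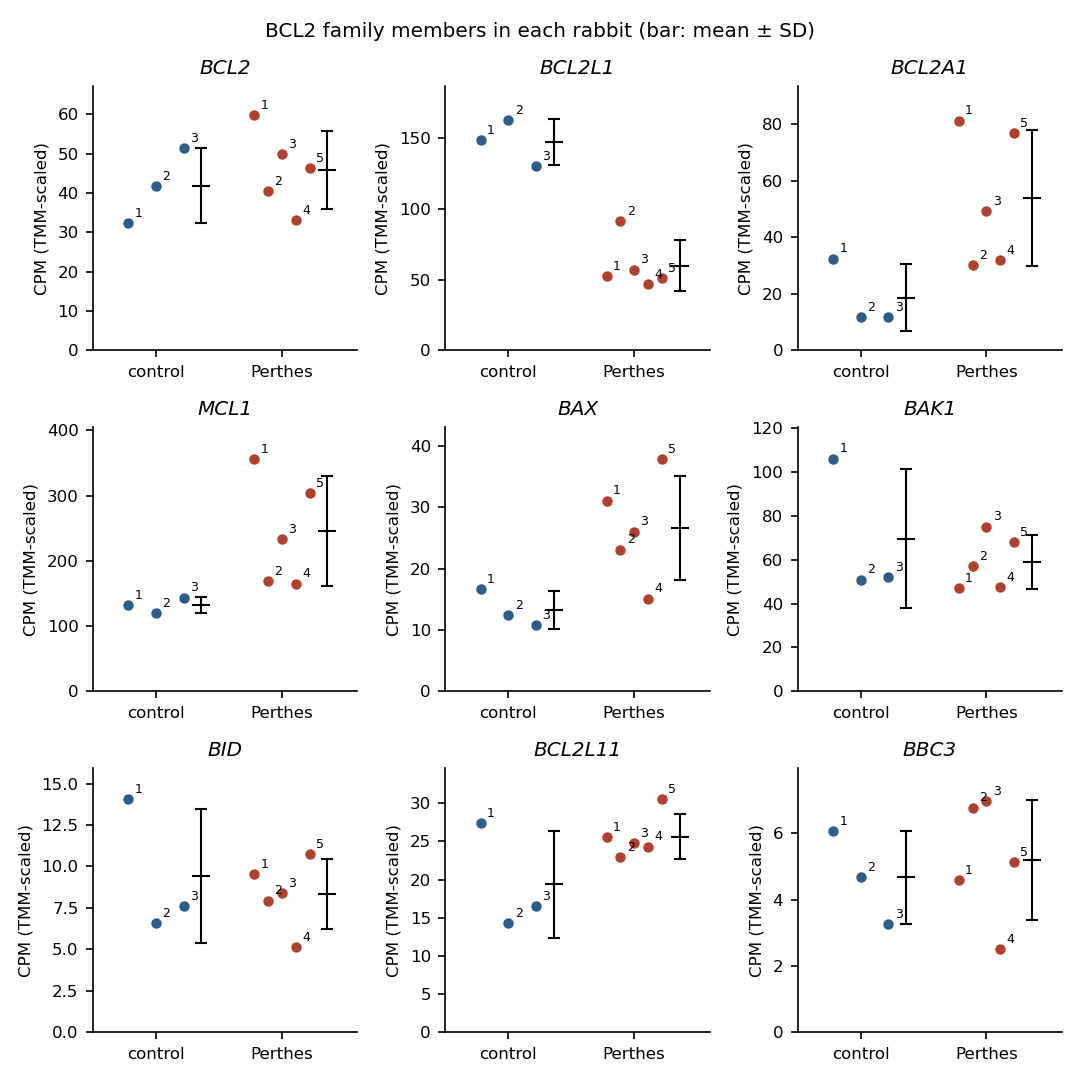
TMM-scaled CPM of the 9 members in each rabbit, with 1 point per library (blue for the 3 controls, red for the 5 Perthes rabbits, digits for rabbit numbers) and a bar for the mean ± SD of each group. *BCL2L1* lies between 46.8 and 91.4 CPM in Perthes rabbits and between 130.04 and 162.9 CPM in controls, *MCL1* is above every control in every Perthes rabbit, and the other 7 members overlap.

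The Perthes rabbits were not alike in these genes. Rabbit 4 was the lowest of the group for 6 of the 9 members and among the lowest 2 for all 9. Rabbits 1 and 5 were each among the highest 2 for 6 members, and together they were the highest 2 for *BCL2A1*, *MCL1*, *BAX*, *BID* and *BCL2L11*. Rabbit 2 was highest for *BCL2L1* and lowest for *BCL2A1* and *BCL2L11*. The ratio of the highest to the lowest Perthes rabbit ranged from 1.33 for *BCL2L11* to 2.78 for *BBC3* and was 2.70 for *BCL2A1*. In the controls, rabbit 1 was highest for 6 of the 9 members, namely *BCL2A1*, *BAX*, *BAK1*, *BID*, *BCL2L11* and *BBC3*. The coefficient of variation among controls was 9.17% for *MCL1* and 11.2% for *BCL2L1*, against 63.7% for *BCL2A1* and 45.3% for *BAK1*.

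Marker genes of the tissue's cell types also differed between the rabbits, and in tissue samples fewer cells of a type cannot be told apart from less RNA per cell. All 8 erythroid markers had every Perthes rabbit below every control (against 13.9% of all genes tested), and 3 of the 8 were called lower (against 8.86%). Their summed level was 4766 to 5419 CPM in controls and 649 to 2403 CPM in Perthes rabbits, with none of the 8 at 0 throughout. Perthes rabbit 2, the highest Perthes rabbit for *BCL2L1*, was also the highest for this sum at 2403 CPM, and the other 4 lay between 649 and 919 CPM. The 5 markers of cycling cells were all called lower (against 8.86% of all genes tested). Their sums were 1151 to 1164 CPM in controls and 171.0 to 497 CPM in Perthes rabbits, again highest in rabbit 2. Beyond rabbit 2 the orders differed: Perthes rabbit 4 was the next highest for both sums, at 919 and 261 CPM, and the lowest for *BCL2L1*, and among the controls rabbit 1 had the highest sums and rabbit 2 the highest *BCL2L1*. The part of either in the *BCL2L1* difference was not tested.

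Of the 5 macrophage markers found, 4 were called higher (against 6.21% of all genes tested). Their summed level was 348 to 406 CPM in controls and 1539, 872, 1187, 433 and 1474 CPM in Perthes rabbits 1 to 5, and no marker was at 0 throughout. *MCL1*, *BCL2A1* and *BAX* were likewise highest in rabbits 1 and 5, followed by rabbit 3, and were lower in rabbits 2 and 4. Rabbit 4, in which the macrophage sum came nearest to the controls, was also the Perthes rabbit nearest to them for *MCL1*, and for *BAX* the only one inside their range. Rabbit 2 did not follow this order, with a macrophage sum of 872 CPM. It was close to rabbit 4 for *MCL1* (169 and 165 CPM) and below rabbit 4 for *BCL2A1* (30.1 and 32.1 CPM). Perthes rabbit 4 also had the highest chondrocyte sum of all rabbits, at 131326 CPM, beside 32706 to 74807 CPM in the other Perthes rabbits. Osteoclast markers were called higher for 2 of 5 genes (against 6.21% of all genes tested), with sums of 717 to 1259 CPM in controls. In Perthes rabbits 1 to 5 the osteoclast sums were 3289, 3088, 3187, 1528 and 4368 CPM. These too were highest in rabbits 5 and 1 and nearest to the controls in rabbit 4. Neutrophil markers moved the opposite way. Of the 7 found, 4 were called lower (against 8.86% of all genes tested). The sums were 5766 to 18728 CPM in controls, highest in control rabbit 1, and 25.9 to 1516 CPM in Perthes rabbits, lowest in rabbit 1. Control rabbit 1 was thus the control with the most neutrophil marker RNA and the most *BCL2A1*, *BAX*, *BAK1*, *BID*, *BCL2L11* and *BBC3*. The same control also had the highest erythroid, macrophage, megakaryocyte, T cell, endothelial and cycling cell sums of the controls. Its B cell, osteoclast, chondrocyte, osteoblast, fibroblast, adipocyte and skeletal muscle sums were not the highest. The Perthes rabbit with the least neutrophil marker RNA had the most *BCL2A1*. The part of these cell types in the levels of the members was not tested. B cell sums (24.98 to 41.9 CPM in controls, 5.20 to 24.4 CPM in Perthes rabbits) did not overlap, and T cell sums (6.95 to 14.3 and 3.86 to 10.6 CPM) did.

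**Figure D2:**
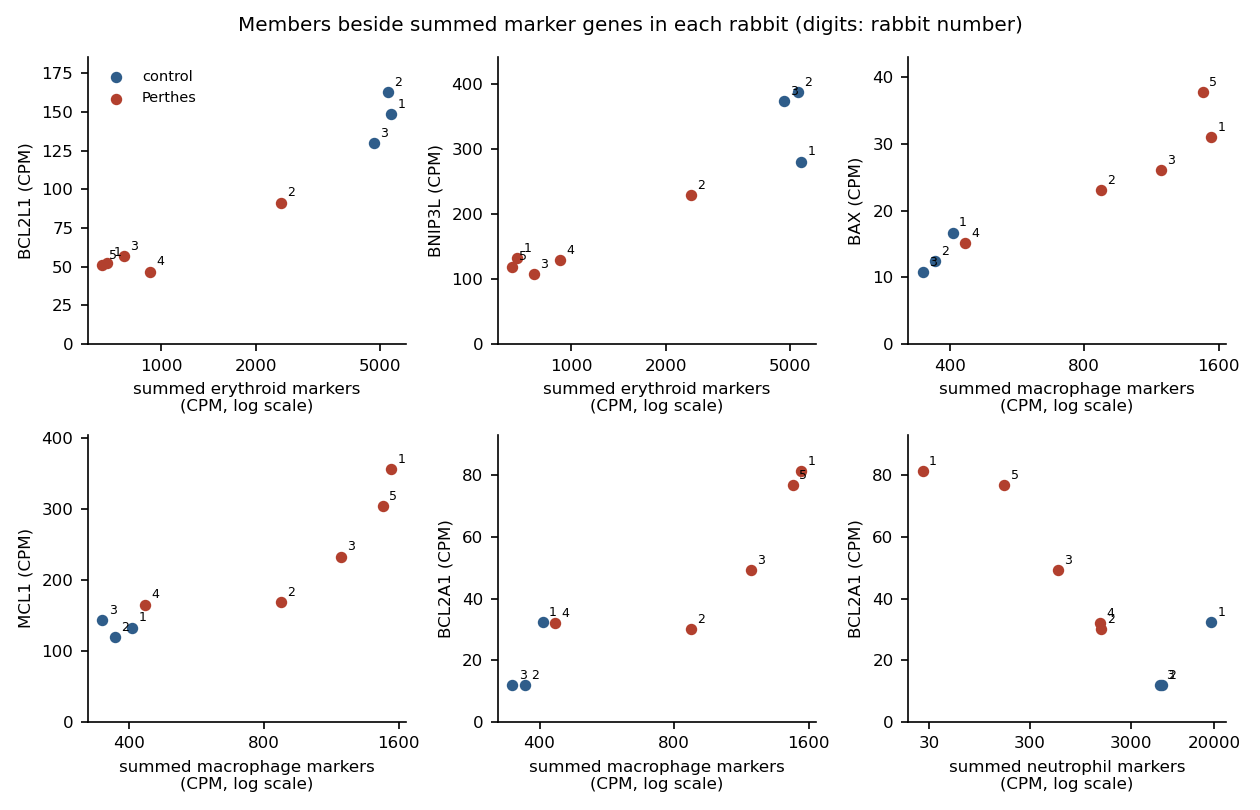
Levels of *BCL2L1*, *BNIP3L*, *BAX*, *MCL1* and *BCL2A1* (vertical axes, CPM) against the summed level of erythroid, macrophage or neutrophil markers (horizontal axes, CPM on a log scale), with 1 point per rabbit, blue for control and red for Perthes. Perthes rabbit 2 stands between the other Perthes rabbits and the controls for *BCL2L1* and *BNIP3L* as for the erythroid sum, and Perthes rabbit 4 stands beside the controls for *BAX*, *MCL1* and the macrophage sum. Control rabbit 1 has the highest erythroid sum but not the highest *BCL2L1* or *BNIP3L*. Perthes rabbit 2 is close to rabbit 4 for *MCL1* but not for the macrophage sum.

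Ratios of 2 members within a library are independent of library scaling apart from the pseudocount of 0.5 CPM, and 3 of them were tested. The log2 ratio of *BAX* to *BCL2*, often used as an index of readiness for apoptosis, was -0.93, -0.80, -0.92, -1.11 and -0.29 in Perthes rabbits 1 to 5 and -0.93, -1.71 and -2.20 in the controls. Its mean was higher by 0.80 in Perthes rabbits, with control rabbit 1 inside their range (two-sided exact permutation test, p = 0.107, adjusted p = 0.214 over 3 ratios). The *BCL2A1* to *BCL2* ratio differed by 1.42 on the log2 scale (exact permutation p = 0.143, adjusted p = 0.214), and the *BCL2L11* to *MCL1* ratio by -0.39 (exact permutation p = 0.321, adjusted p = 0.321). The smallest p that 56 divisions of 8 rabbits allow is 0.0357, and none of the 3 ratios reached 0.05. Without 1 rabbit the differences ranged from 0.51 to 1.15 for *BAX* to *BCL2* and from -0.54 to -0.12 for *BCL2L11* to *MCL1*. For *BCL2A1* to *BCL2* the range was 1.03 without control rabbit 3 to 2.06 without control rabbit 1.

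Ratios to *BCL2L1* were taken after its fall had been seen and are therefore given without a test. They did not overlap between the groups. For *MCL1* this was bound to follow, as both genes separate the groups in opposite directions. All 3 ratios carry the fall of *BCL2L1* itself and are no separate evidence. For *MCL1* to *BCL2L1* the log2 ratio was 2.75, 0.88, 2.02, 1.81 and 2.56 in Perthes rabbits and -0.16, -0.45 and 0.14 in controls. The lowest Perthes value, in rabbit 2, was above the highest control value. The mean difference was 2.16 for *MCL1*, 2.88 for *BCL2A1* and 2.26 for *BAX* over *BCL2L1*. Perthes rabbit 2 was the nearest to the controls in all 3.

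**Figure D3:**
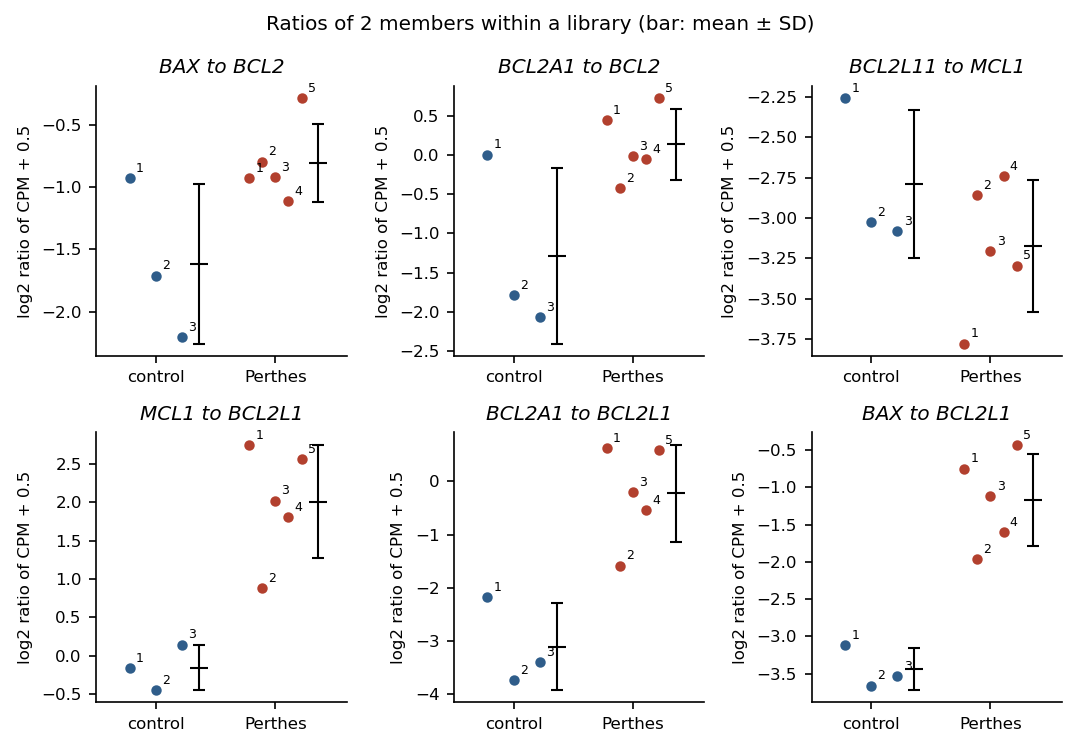
Log2 ratios of 2 members within each library (CPM with a pseudocount of 0.5), with 1 point per rabbit and bars for the mean ± SD. The 3 tested ratios in the upper row overlap between controls (blue) and Perthes rabbits (red), and the 3 ratios to *BCL2L1* in the lower row, chosen after values were seen, do not. The lower row carries the fall of *BCL2L1* itself and is no separate evidence.

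Of 14 other genes of the family, listed by membership, 12 were found by symbol and 10 of them were tested. edgeR called 2 of the 10 lower (against 8.86% of all genes tested) and 0 higher (6.21%). At an unadjusted p below 0.05 there were 2 in each direction (16.6% of all genes lower and 15.3% higher). Of the 12 found, DESeq2 called 1 higher (9.74% of its genes) and 3 lower (11.0%), the 3 including *BIK*, which was not among the 10. *BNIP3L* (gene 100351388), the mitophagy receptor that clears mitochondria from maturing red cells, had 132.8, 229.9, 108.1, 129.1 and 119 CPM in Perthes rabbits and 281, 388 and 375 CPM in controls. All Perthes rabbits were below all controls (as for 13.9% of all genes tested), with rabbit 2 again the highest, as for *BCL2L1* and the erythroid markers. Elsewhere the orders differed: control rabbit 1 had the highest erythroid sum of the controls (5419 CPM) and the lowest *BNIP3L*. Perthes rabbit 3 was the lowest of its group for *BNIP3L* but not for the erythroid sum. The part of red cells in the *BNIP3L* difference was not tested. *BNIP3L* fell by 1.28 ± 0.26 on the log2 scale (edgeR adjusted p = 0.0173). The adjusted p was 0.0516 without Perthes rabbit 5, 0.0514 without control rabbit 1 and 0.0710 without control rabbit 2. *BCL2L15* (gene 100346896) had 0.27, 2.25, 1.43, 0.91 and 0.41 CPM against 10.3, 4.34 and 4.42 CPM, and the log2 change was -2.60 ± 0.62 (SE, edgeR adjusted p = 0.0263). Without 1 rabbit its adjusted p ranged from 0.0104 to 0.117, and it was above the threshold without Perthes rabbits 3 (0.0559) or 5 (0.0608) and control rabbits 1 (0.117) or 2 (0.0649).

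*BNIP3* (gene 100348536), the relative of *BNIP3L* that is induced by low oxygen, went the other way in level. It had 74.7, 66.8, 73.9, 171 and 104 CPM in Perthes rabbits and 45.2, 43.1 and 58.6 CPM in controls. The groups did not overlap, as for 11.2% of all genes tested in this direction, and Perthes rabbit 4 was highest. The log2 fold change of 1.00 (SE 0.33) had an adjusted p of 0.0697 in edgeR and 0.0276 in DESeq2. *BOK*, a relative of *BAX* and *BAK1*, had a log2 change of 0.59 ± 0.22 (SE, edgeR adjusted p = 0.0977), and *BCL2L13*, a mitophagy receptor, of -0.28 (SE 0.13, adjusted p = 0.170) with non-overlapping groups. *BECN1*, the autophagy gene whose product carries a BH3 domain, was at -0.23 (SE 0.12, edgeR adjusted p = 0.242), also without overlap. Both were lower in Perthes rabbits, a separation that 13.9% of all genes tested had in this direction. The BH3-only genes *BAD* and *BMF* and the genes *BCL2L12* and *BCL2L14* had log2 fold changes of -0.46, 0.23, 0.24 and -0.61 and overlapped. A gene listed as LOC100345100, described as the BCL2-like protein BCL-w, had 0.26 (SE 0.19). *BIK* and *BCL2L10* failed the low-count filter. *BIK* had 0, 1, 1, 1 and 1 counts in Perthes rabbits and 10, 5 and 6 in controls, and DESeq2 called it lower (adjusted p = 0.0251), whereas *BCL2L10* had 6, 1, 6, 8 and 8 counts against 1, 2 and 2.

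Genes that act upstream and downstream of the family were read from 7 lists. Together with the other family genes, 72 were tested, of which 1 was called higher and 8 lower by edgeR, shares to be read against 6.21% and 8.86% of all genes. Their median log2 fold change was -0.08. Of the apoptosome and caspase genes 0 of 14 was called, with 1 higher and 2 lower at an unadjusted p below 0.05, and DESeq2 called these numbers. Over all genes the shares were 15.3% higher and 16.6% lower at the unadjusted p, and 9.74% and 11.0% in DESeq2. *AIFM1*, a mitochondrial flavoprotein released during cell death, had 17.6 ± 1.71 CPM (SD, n = 5) against 24.3 ± 1.37 CPM (SD, n = 3), and the initiator caspase *CASP2* 38.8 ± 8.43 against 60.3 ± 10.1 CPM. Their log2 fold changes were -0.46 and -0.63 with adjusted p-values of 0.0557 and 0.0683 from edgeR. The apoptosome scaffold *APAF1*, named after its values were seen, was at 0.09 (SE 0.16).

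In the death receptor list 0 of 10 genes was called by edgeR, with 2 higher and 1 lower by DESeq2 and at an unadjusted p below 0.05. For this list and the next, the all-gene shares in edgeR were 6.21% higher and 8.86% lower. At the unadjusted p they were 15.3% and 16.6%, and in DESeq2 9.74% and 11.0%. *FAS*, the receptor of FAS ligand, had 9.33 ± 2.94 CPM (SD, n = 5) against 4.91 ± 1.17 CPM (SD, n = 3), and *TNFRSF25* 5.78 ± 2.46 against 14.7 ± 7.55 CPM. Their log2 fold changes were 0.93 and -1.35, with adjusted p-values of 0.0622 and 0.0567 from edgeR. Of the mitochondrial partners 0 of 10 was called, 3 being higher and 2 lower at an unadjusted p below 0.05 and 2 and 1 by DESeq2. *VDAC2*, the outer membrane channel that binds BAK1 and BAX, had 104 ± 13.6 CPM (SD, n = 5) against 71.7 ± 5.11 CPM (SD, n = 3), and *PPIF*, which encodes cyclophilin D, 14.2 ± 4.38 against 29.7 ± 16.4 CPM. The log2 fold change of *PPIF* was -1.07 (edgeR adjusted p = 0.0826), and -0.52 without control rabbit 1, its highest control at 48.5 CPM.

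Of the 7 calls outside the family, 4 were upstream transcription factors, of which 3 are described here. *FOXO3*, a transcription factor that activates *BCL2L11* and *BBC3*, had 138 ± 26.1 CPM (SD, n = 5) beside 283 ± 19.2 CPM in controls (SD, n = 3) and fell by 1.04 ± 0.19 on the log2 scale (edgeR adjusted p = 0.0135). *E2F1*, a factor of the cell cycle that also controls BH3-only genes, fell from 23.9 ± 5.38 to 9.42 ± 4.05 CPM, by 1.34 (adjusted p = 0.0341). *HIF1A*, the oxygen-regulated factor, was the single gene of these lists that was called higher, at 1.38 (SE 0.39, adjusted p = 0.0455), and its adjusted p was 0.0655 with library totals in place of TMM. *BTRC*, an F-box protein of a ubiquitin ligase that can target MCL-1, fell from 50.4 ± 5.87 to 22.7 ± 5.84 CPM, by 1.15 (adjusted p = 0.0136), and was highest in Perthes rabbit 2 at 32.7 CPM. It was the one of 5 genes for MCL-1 turnover to be called. Of the inhibitors of apoptosis 1 of 6 was called lower, *BIRC2*, which encodes cIAP1, by 0.76 (adjusted p = 0.0320), and of the genes for lytic cell death 1 of 5, the inflammatory caspase *CASP1*, by 1.12 (adjusted p = 0.0407). Of all genes tested, 6.21% were called higher and 8.86% lower. Without 1 rabbit the 8 lower calls became 3 (without Perthes rabbit 3), 2 (Perthes rabbit 5), 2 (control rabbit 1), 0 (control rabbit 2) or 12 (Perthes rabbit 2), and the 1 higher call became 0 without Perthes rabbit 1, 3 or 5 or control rabbit 1 or 2, 2 without Perthes rabbit 4, *HIF1A* not among them, and 3 without Perthes rabbit 2. The adjusted p of *FOXO3* was 0.0514 and 0.0583 without control rabbits 1 and 2, and that of *BTRC* 0.0579 without control rabbit 2. Of 15 alternative fits, *E2F1* and *BIRC2* each lost the call in 5, *CASP1* in 6 and *HIF1A* in 8. Without control rabbit 1, *CASP1* was at -0.65 (edgeR adjusted p = 0.170) and *E2F1* at -1.16 (0.131).

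**Figure D4:**
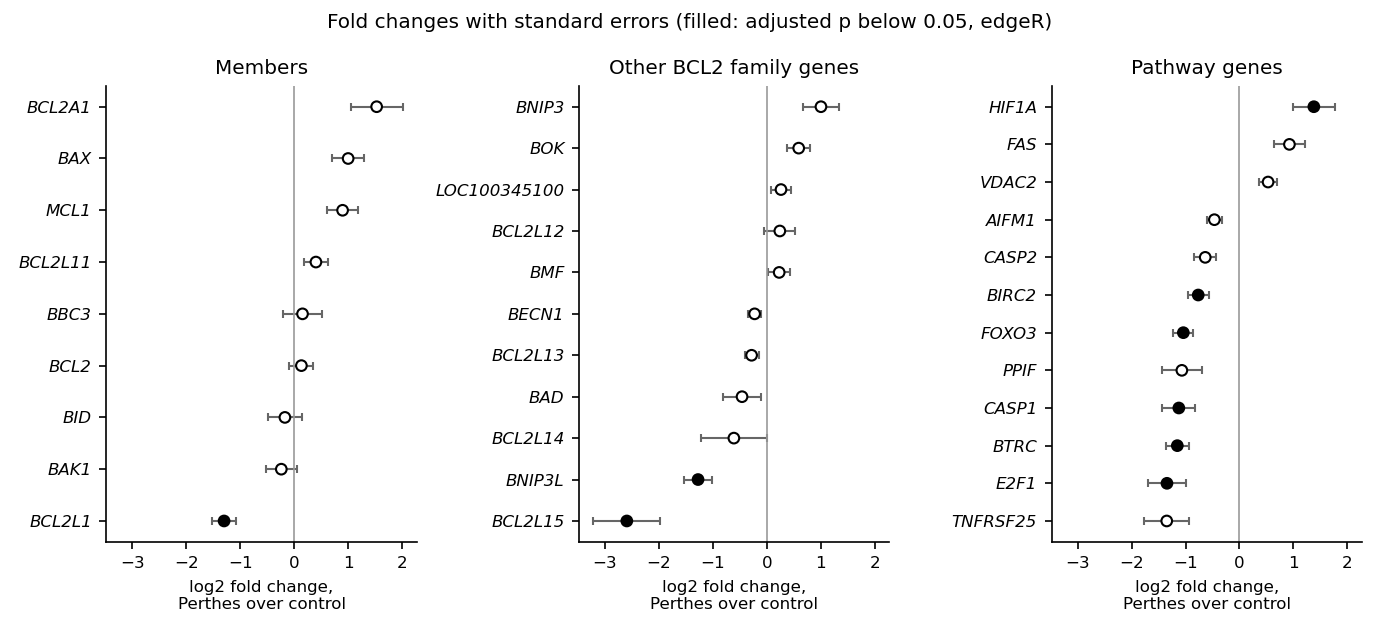
Log2 fold changes of Perthes over control rabbits with standard errors from edgeR for the 9 members, 11 other BCL2 family genes and 12 named pathway genes, each group sorted by value. Filled points have an adjusted p below 0.05: *BCL2L1* at -1.30 among the members, *BNIP3L* at -1.28 and *BCL2L15* at -2.60 among the other family genes, and *HIF1A* as the only filled point above 0.

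For the 3 members with the smallest p, the genes with the most similar profile over the 8 rabbits were sought by the root mean square difference between log2 CPM values, each centred on its own mean. Nearest to *BCL2L1* were *RNF10* (0.080), *CELF1* (0.092) and *NEMP1* (0.102), whose log2 fold changes of -1.21, -1.25 and -1.41 had adjusted p-values of 0.0136, 0.0136 and 0.0122 in edgeR. The profile of *BAX* was closest to *CNDP2* (0.134), *ACCS* (0.136) and *BCAP31* (0.144), and that of *BCL2A1* to *DRAM1* (0.201), *CLEC4E* (0.228) and *EMILIN2* (0.276). None of these 6 genes passed the adjusted threshold, with adjusted p-values from 0.0542 to 0.0819. The differences are descriptions over the same 8 libraries. They tend to grow with a member's own spread between rabbits, so those of *BCL2L1* and *BCL2A1* cannot be compared as closeness of match. The genes were picked by a member's profile, so their adjusted p-values are no separate evidence.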

How the data were processed

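Total RNA was depleted of ribosomal RNA, and directional libraries were sequenced as read pairs. Read filtering used SOAPnuke 1.5.2 and mapping HISAT2 2.0.4. For quantification the study names RSEM 1.1.17 and HTSeq 1.99.2. The values the authors deposited are expected counts per gene, without normalization. These estimates were rounded to whole counts here, since up to 10.7% of a library's values were not whole. A further 8 columns repeat the 8 used and were left out, and the small RNA libraries were not used here.

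Genes were filtered with filterByExpr, scaled by TMM and tested with the quasi-likelihood F-test of edgeR 4.0.16 (R 4.3.3). P-values were adjusted by the Benjamini-Hochberg method over all 15305 tested genes. SE is the log2 fold change divided by the square root of F. Log2 CPM used a prior count of 2. Ratios were compared by exact permutation. The code was tested on simulated counts. The members and gene lists were chosen with earlier results of these data known. Genes named from the lists are those past an adjusted p of 0.05, up to 4 per list, or otherwise the 2 with the smallest p. One gene that met this rule is not reported here. Identifiers of all 9 members matched their symbols in RefSeq's annotation (assembly mOryCun1.1), used for names only. Nothing states that rabbits of a group came from separate litters, so p-values measure the spread between these samples. Alternatives were DESeq2 1.42.0, other scalings and filters, the replicate number as a block, and leaving out each rabbit.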

Additional observations from a re-analysis of the deposited data

Results flagged for a closer look

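Among the 5 Perthes rabbits, 38 sets of values (genes named above and 3 ratios) were examined for a single rabbit far from the rest by Dixon's test at its 95% limit, which chance passes in about 1 of 20 groups, and 5 passed. *BCL2L1* was flagged for 91.4 CPM in Perthes rabbit 2, beside a group median of 52.6 CPM, *BNIP3L* for 229.9 CPM in the same rabbit (median 129.1 CPM) and *BTRC* for 32.7 CPM, again in rabbit 2 (median 21.4 CPM). In all 3 this rabbit lay between the other Perthes rabbits and the controls. *BECN1* was flagged for 50.4 CPM in Perthes rabbit 1 (median 46.4 CPM), and *BIK* for 0 CPM in Perthes rabbit 1, where each of the other Perthes libraries held 1 count.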

How the results depend on the processing

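The fall of *BCL2L1* kept its direction in all 15 alternative fits (adjusted p from 1.94e-05 in DESeq2 to 0.122 with the replicate block) and its call in 12. Members called higher numbered 3 with DESeq2 and 1 with edgeR's newer fit, in place of 0, and 0 to 3 without 1 rabbit. Members called lower numbered 0 with the replicate block and 0 to 1 without 1 rabbit. Other family and pathway genes called higher numbered 7 with DESeq2, 2 with the newer fit and 0 with library totals alone or the replicate block (0 to 3 without 1 rabbit), and those called lower 14 with DESeq2 and 0 with the block (0 to 12 without 1 rabbit). With the replicate number as a block, 0 of 15305 genes passed in edgeR, 3152 had an unadjusted p below 0.05, and so did 4 members. In that fit Perthes rabbits 4 and 5 have no control of the same number and add nothing to the group difference. It therefore has little power. Same-numbered rabbits deviated from their group means with correlations of -0.317, 0.161 and -0.238, and none correlated best with its own number. So few pairs cannot decide whether the numbers pair the rabbits. Without 1 rabbit the log2 fold change ranged from -0.020 to 0.31 for *BCL2*, -0.42 to 0.20 for *BAK1*, -0.38 to 0.24 for *BID* and -0.050 to 0.39 for *BBC3*, each crossing 0. Over 33 genes and 493 refitted values, 412 kept direction and side of the threshold, 49 lost the call, 28 gained it and 4 changed sign. With 3 controls, precision was limited by the spread between rabbits rather than by depth.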
